A study of Rattus norvegicus with 18 samples.

Results

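rno-miR-138 and rno-miR-22 are 2 of the 795 small RNA sequences that were counted in libraries from the developing rat forebrain and cortex. Their mature sequences were taken from the primers of the study and were identical to rno-miR-138-5p and rno-miR-22-3p of RefSeq. Tags counted for a member matched it without mismatch wherever they overlapped, began within 3 nt of its 5' end and ran at most 3 nt past its 3' end. By this rule 140 distinct tags with 112613 reads belonged to rno-miR-138, and 68 tags with 33498 reads to rno-miR-22.

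Size-selected small RNA was purified from Sprague Dawley rats, with no treatment in the labels, and sequenced at 8 stages. The labelled tissue was forebrain for E10 and E13 and somatosensory cortex for E17, P0, P3, P7, P14 and P28, where E and P stand for embryonic and postnatal day, whereas the methods give whole cortex at the first stages and its dorsolateral part later. Hence stage and tissue cannot be told apart between E13 and E17. P0 had 2 tissue samples and every other stage 1, and each of the 9 tissue samples was sequenced in 2 runs, which are technical replicates. No source used here gives the number of animals behind a sample. The tissue is a mixture of cells, in which fewer cells of a type and less RNA per cell cannot be told apart, so maturing neurons as the source of either miRNA could not be checked.

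A mature miRNA guides an Argonaute protein to messenger RNAs, mainly through its seed, bases 2 to 8 from the 5' end, and lowers their translation or stability. miR-138 is enriched in the brain and is known for restraining the growth of dendritic spines, the postsynaptic sites of excitatory neurons, through the depalmitoylating enzyme APT1. miR-22 is made in many tissues, cortical neurons among them, and its known targets include Hdac4 and Rcor1, a histone deacetylase and a co-repressor of transcription. Each hairpin precursor yields the mature strand and an opposite arm that is usually less abundant.

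The mature sequences are shown first because every level below is a count of reads that matched them, with the seed in capitals.
rno-miR-138: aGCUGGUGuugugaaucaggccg
rno-miR-22: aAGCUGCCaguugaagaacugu
Neither seed occurred in any other of the 692 distinct mature rat sequences of RefSeq, so that each member was alone in its seed group. The longest stretch that the members share has 5 bases and starts at base 1 of rno-miR-138 and base 2 of rno-miR-22.

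Most reads of both members ended before the mature 3' end, and over both runs the commonest tag of each was cut to 18 nt, the shortest length in the files. In run 2 alone the full-length tag of rno-miR-22 was the commonest, with 5230 reads against 4335 for tags cut to 18 nt. The 18 nt tags are shown because they carried most of the reads in run 1, and they hold the whole seed.
rno-miR-138, 18 nt tag: aGCUGGUGuugugaauca
rno-miR-22, 18 nt tag: aAGCUGCCaguugaagaa

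The mature rno-miR-138 is encoded by a pair of hairpins, and rno-miR-22 by a single one. In the GRCr8 assembly, RefSeq places Mir138-1 at chr8:131178434-131178532 on the plus strand, within the spans of the long non-coding RNA genes LOC103690480 and LOC102550701. Mir138-2 lies at chr19:10680133-10680214 on the minus strand, within the span of the protein-coding gene Slc12a3. Mir22 lies at chr10:60805331-60805425 on the plus strand and overlaps no other gene span. Whether these positions are exonic or intronic was not analysed here. The hairpins are printed with the mature sequence in capitals, since the opposite arms and the bases after the mature end are used further on.
Mir138-1: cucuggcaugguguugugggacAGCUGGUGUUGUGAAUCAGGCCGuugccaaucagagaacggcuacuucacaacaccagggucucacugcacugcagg
Mir138-2: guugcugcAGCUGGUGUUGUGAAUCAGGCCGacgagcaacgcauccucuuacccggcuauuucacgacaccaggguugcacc
Mir22: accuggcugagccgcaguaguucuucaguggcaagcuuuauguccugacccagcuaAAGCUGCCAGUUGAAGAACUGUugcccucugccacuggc

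The libraries held 4899010 to 16590379 clean reads, and levels are given in TPM, tags per 1000000 clean reads of the library. These levels and the folds between stages are not scaled by TMM, the normalization between samples used in the slope and late fits. Its factors ran from 0.554 in P0 sample 2 to 1.98 in E10, so levels and fits are on different scales. Run 2 of E10 stood apart from all others: over its 337 features with at least 200 reads, the median share of 18 nt tags was 0.0226%, against 1.36% to 6.06% in the other 17 libraries, and the median full-length share was 39.3% against 7.82% to 16.5%. The slopes, late differences, ratio of the members and full-length shares are therefore also given with E10 from run 1 alone, a setting added after the data were seen. The runs also differed in the members: rno-miR-138 was higher in run 1 in 7 of 9 tissue samples, with a median ratio of 1.22, and rno-miR-22 in 8 of 9, with a median ratio of 3.33 and a range of 0.349 to 6.33. The longest tags had 30 nt in run 1 and 39 nt in run 2, so the clean reads behind the TPM cover unlike length ranges.

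rno-miR-138 was low in the embryo and high from P7 on. Its level, given for run 1 and then run 2, was 161 and 181 TPM at E10, 88.5 and 74.0 TPM at E13, and 99.9 and 102 TPM at E17. At P0 it was 485 and 398 TPM in sample 1 and 271 and 181 TPM in sample 2, and at P3 it was 510 and 384 TPM. From P7 on it was 1748 and 872 TPM at P7, 1305 and 853 TPM at P14, and 1293 and 1252 TPM at P28. In both runs the 3 late samples lay above all earlier ones, and the lowest level was that of E13. The rise of all tags together came in a pair of steps that both runs showed: between E17 and the mean of the P0 samples the level grew 3.78-fold in run 1 and 2.85-fold in run 2, and between P3 and P7 it grew 3.43-fold and 2.27-fold. In run 1 the step from P3 to P7 lay in the 18 nt tags, which grew 6.29-fold, while longer tags went to 0.315-fold and full-length tags to 0.0784-fold of their level at P3. In run 2 these 3 ratios were 5.34, 1.52 and 1.20. The libraries shifted the same way over all features with at least 200 reads. From P3 to P7 their median 18 nt share went from 2.80% to 5.62% in run 1 and from 1.36% to 2.62% in run 2. The median full-length share went from 13.9% to 8.02% and from 16.5% to 14.0%. From P0 to P3 the total grew by 1.35-fold and 1.32-fold. After P7 the runs parted, since the level at P28 was below that at P7 in run 1 and above it in run 2. With both runs averaged, P0 stood at 334 ± 153 TPM (SD, n = 2), and the neighbours P0 and P3 (447 TPM) differed by less than this spread. The TMM factors of the P0 samples, 0.921 and 0.554, are not applied to these levels. The stages P7, P14 and P28, at 1310, 1079 and 1273 TPM, had no replicate sample of their own and differed from each other by less than the runs of P7 did.

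rno-miR-22 was less abundant, and its rise depended more on the run. In run 1 its level was 58.7 TPM at E10, 127 TPM at E13, 73.4 TPM at E17, 435 and 36.0 TPM in the P0 samples, 78.3 TPM at P3, 490 TPM at P7, 686 TPM at P14 and 651 TPM at P28. In run 2 it was 168 TPM at E10, 20.0 TPM at E13, 22.1 TPM at E17, 79.2 and 24.8 TPM in the P0 samples, 48.1 TPM at P3, 81.0 TPM at P7, 133 TPM at P14 and 297 TPM at P28. In run 1 the 3 late samples lay above all earlier ones, whereas in run 2 E10 was above both P7 and P14. From P3 to P7 it grew 6.26-fold in run 1 but 1.69-fold in run 2. In run 2 the level went on growing, by 1.64-fold from P7 to P14 and 2.23-fold from P14 to P28, whereas in run 1 the last step was a ratio of 0.948. The P0 samples were far apart: with both runs averaged they held 257 and 30.4 TPM, so that P0 was 144 ± 160 TPM (SD, n = 2). No neighbouring stages from E10 to P3 differed by more than this spread, and P7, P14 and P28 followed at 286, 410 and 474 TPM.

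**Figure D1:**
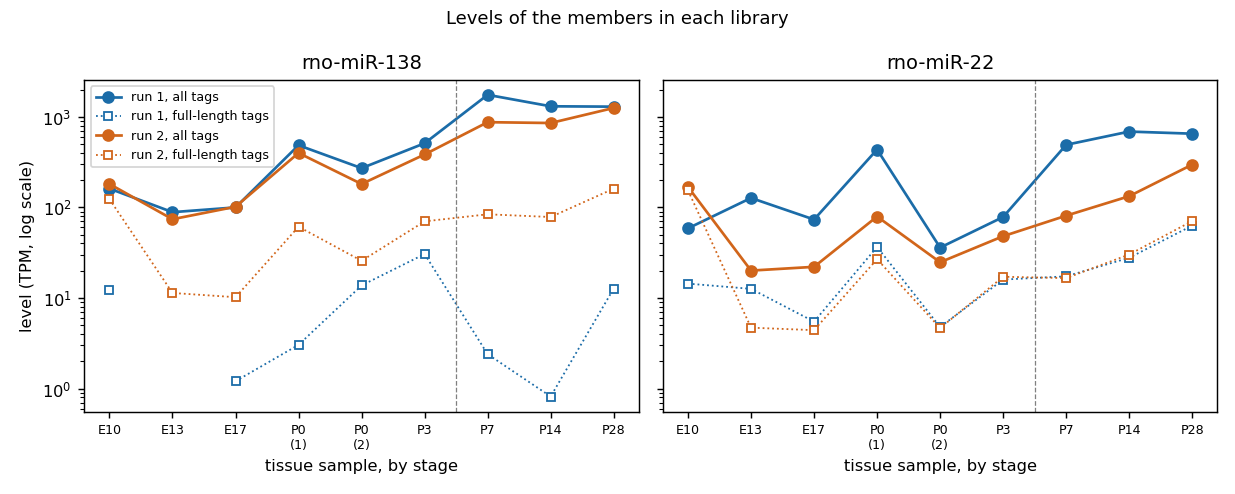
Level in TPM on a log axis (y) of rno-miR-138 (left) and rno-miR-22 (right) in each tissue sample by stage (x), the P0 samples as (1) and (2), with blue for run 1, orange for run 2, filled circles for all tags and open squares for full-length tags; the dashed line separates P3 from P7, and a level of 0 (full-length rno-miR-138 at E13 in run 1) is not drawn. All tags of rno-miR-138 rose in both runs, while its full-length tags in run 1 did not exceed 30.5 TPM at any stage.

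The slope on the order of the stages was fitted across all features with edgeR's quasi-likelihood test on the reads of both runs summed. rno-miR-138 rose by 0.67 on the log2 scale per stage step (SE 0.128, adjusted p = 0.00126, Benjamini-Hochberg over 568 features) and rno-miR-22 by 0.43 (SE 0.107, adjusted p = 0.00623). A rise past the threshold of 0.05 was found for 95 features, or 16.7% of those tested, and a fall for 164. Both members thus rose, at ranks 24 and 59 from the steepest rise, beside a median slope of -0.11 over all features. The members were chosen with earlier results of these data known, so this is not independent evidence of a rise. Within run 1 the slopes were 0.71 (edgeR adjusted p = 0.00679) and 0.60 (adjusted p = 0.011), and within run 2 they were 0.69 (adjusted p = 0.000707) and 0.38 (adjusted p = 0.0131), for rno-miR-138 and rno-miR-22. With E10 from run 1 alone they were 0.66 and 0.52, both past the threshold. Without TMM normalization, which moved the split of all calls to 54 rising and 217 falling, rno-miR-22 missed the threshold (slope 0.32, edgeR adjusted p = 0.0593).

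**Figure D2:**
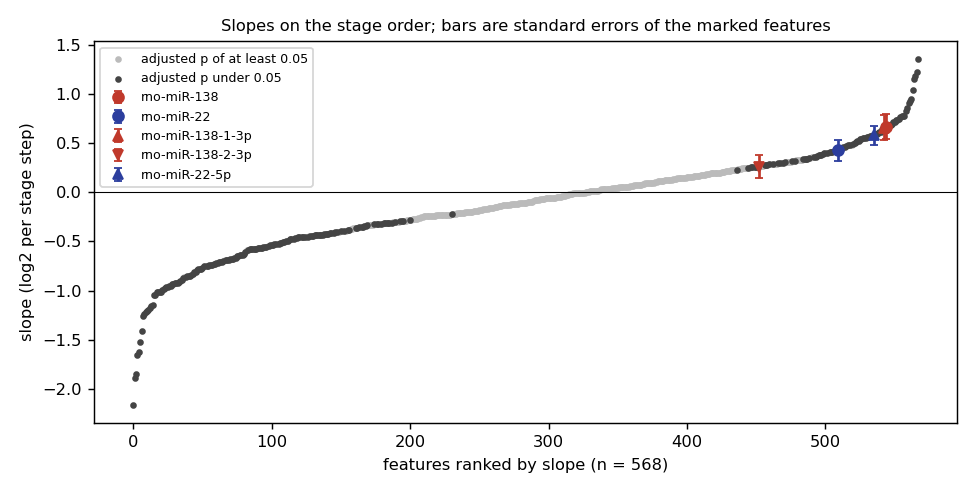
Slope of each of the 568 features on the stage order, in log2 per stage step (y), with the features ranked by slope (x); dark points passed an adjusted p under 0.05, and the members and the opposite arms of their hairpins are marked in colour with their standard errors. rno-miR-138 at 0.67 and rno-miR-22 at 0.43 lie among the rising features, and rno-miR-138-2-3p at 0.26 did not pass.

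The 3 samples from P7 on were then compared with the 6 earlier ones, in the same way. rno-miR-22 was higher late by 1.77 on the log2 scale (SE 0.547, edgeR adjusted p = 0.0361), and rno-miR-138 by 1.88 without passing the threshold (SE 0.698, adjusted p = 0.0639). Higher late levels past the threshold were called for 57 features, 10.0% of those tested, but for 3 without P28, 6 without P14 and 7 without TMM normalization. With both runs averaged, the late levels of either member lay above all its earlier ones, which was so for 12.0% of the features. These calls changed with single samples and with the model. rno-miR-138 passed without P3 (2.28, edgeR adjusted p = 0.0313), without E10 and E13 (1.54, adjusted p = 0.0375) and with DESeq2 (2.12, adjusted p = 0.0139). rno-miR-22 missed the threshold without E17, P0 sample 2, P7, P14 or P28, with adjusted p-values of 0.0647 to 0.16, and without TMM normalization (1.84, adjusted p = 0.081). Within run 1 the differences were 2.23 (edgeR adjusted p = 0.0585) for rno-miR-138 and 2.25 (adjusted p = 0.0497) for rno-miR-22, and within run 2 they were 1.92 (adjusted p = 0.0592) and 1.70 (adjusted p = 0.054). With E10 from run 1 alone they were 1.84 (edgeR adjusted p = 0.0635) and 1.82 (adjusted p = 0.0402).

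The timing of the members was set side by side by their ratio within a sample. With both runs averaged, rno-miR-138 exceeded rno-miR-22 in all 9 tissue samples, by 1.51-fold at E10, 1.11-fold at E13, 2.11-fold at E17, 1.72-fold and 7.44-fold in the P0 samples, 7.07-fold at P3, 4.58-fold at P7, 2.63-fold at P14 and 2.69-fold at P28. This ratio was highest in P0 sample 2 and at P3, before the late samples, and the groups overlapped. In run 1 the same samples were highest, with log2 ratios of 2.91 and 2.70 and a highest late value of 1.83 at P7, but in run 2 P7 was highest with 3.43, above P3 with 3.00 and P0 sample 2 with 2.87. The mean log2 ratio was 1.67 late and 1.39 earlier, and the difference of 0.29 was not past the threshold (exact permutation test, two-sided, p = 0.69, n = 3 and 6, with 0.0238 as the smallest p of this design). In run 1 at E13 rno-miR-22 was the more abundant member, with a log2 ratio of -0.52, whereas rno-miR-138 was higher in all samples of run 2. With E10 from run 1 alone the difference was 0.14 (exact permutation p = 0.929), and it turned to -0.22 without E10 and E13 and to -0.037 with 18 nt tags left out. This test compares late with earlier means, so a ratio that grew before P7 and fell again counts within the earlier group, and such a course was not tested.

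The full-length tags differed from the totals. In run 1, rno-miR-138 tags with both mature ends were at 12.1 TPM at E10, 0 at E13, 1.20 TPM at E17, 3.04 and 13.7 TPM in the P0 samples, 30.5 TPM at P3, 2.40 TPM at P7, 0.816 TPM at P14 and 12.7 TPM at P28. The 0 at E13 stands for 0 of 632 reads, which allows a share of up to 0.475%. In run 2 they were at 123 TPM at E10, 11.4 TPM at E13, 10.2 TPM at E17, 61.2 and 25.7 TPM in the P0 samples, 70.1 TPM at P3, 83.9 TPM at P7, 78.3 TPM at P14 and 161 TPM at P28. Thus in run 1 the late samples lay within the range of the earlier ones, and in run 2 P28 was the highest sample while E10 lay above P7 and P14. With full-length tags in place of all tags of the members, the slopes were 0.31 for rno-miR-138 (edgeR adjusted p = 0.0811) and 0.12 for rno-miR-22 (adjusted p = 0.464), and neither passed. These slopes turned on run 2 of E10: with E10 from run 1 alone they were 0.62 (edgeR adjusted p = 0.00497) and 0.43 (adjusted p = 0.0106), both past the threshold, while the late differences of the full-length tags, 1.21 (adjusted p = 0.246) and 1.32 (adjusted p = 0.145), did not pass.

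For rno-miR-22 the runs lay closer in the full-length tags than in the totals in 8 of 9 tissue samples. Full-length tags were at 12.6 and 4.70 TPM at E13, 5.48 and 4.41 TPM at E17, 36.6 and 26.8 TPM in P0 sample 1, and 4.78 and 4.65 TPM in P0 sample 2, for run 1 and run 2. They were at 16.0 and 17.1 TPM at P3, 17.3 and 16.6 TPM at P7, 27.8 and 30.2 TPM at P14, and 62.9 and 70.6 TPM at P28. From P3 to P7 they changed by 1.09-fold and 0.967-fold, so that the 6.26-fold step of the total in run 1 was not seen in these tags, and the highest level among the late samples was at P28 in both runs. E10 was the exception, with 14.4 TPM in run 1 and 154 TPM in run 2.

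The share of 18 nt tags set the members apart from most other features. Over the 281 features with at least 1000 reads in run 1 the median share was 3.86%, while rno-miR-138 had 84.0%, exceeded by 5 features, and rno-miR-22 had 59.6%, exceeded by 19. Over 322 features in run 2 the median was 1.72%, while rno-miR-138 had 40.1%, exceeded by 16, and rno-miR-22 had 31.9%, exceeded by 22. Both members therefore lay in the upper tail in both runs, with shares lower in run 2. This comparison was chosen after the data were seen and is a description.

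**Figure D3:**
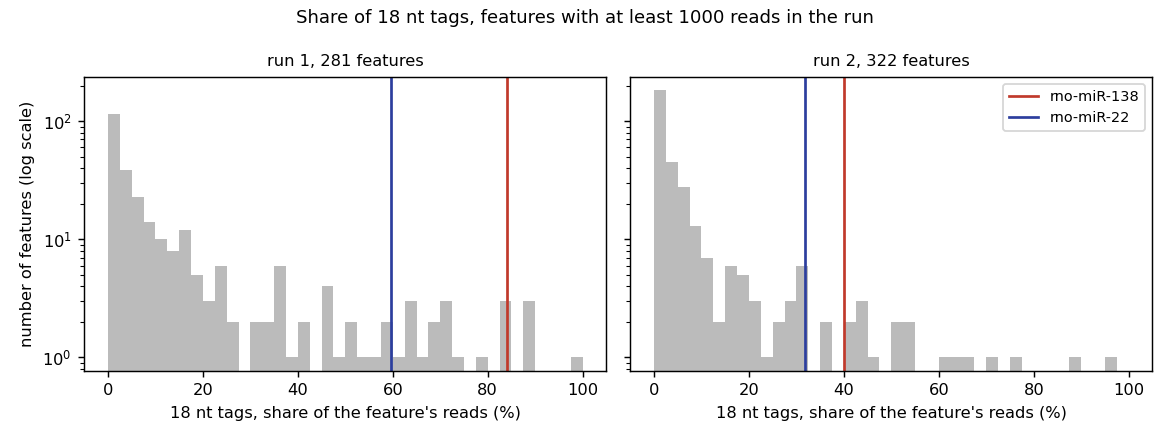
Number of features on a log axis (y) by the share of their reads that were 18 nt tags, in percent (x), in run 1 (left, 281 features) and run 2 (right, 322 features), for features with at least 1000 reads in the run; the lines mark rno-miR-138 and rno-miR-22. The medians are 3.86% and 1.72%, and both lines lie far above them.

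The share of 18 nt tags differed between libraries as well. For rno-miR-138 in run 1 it was 90.5% at E13, 91.0% at E17, 92.4% in P0 sample 1, 95.6% at P7, 95.7% at P14 and 88.3% at P28, but 48.7% at E10, 59.1% in P0 sample 2 and 52.1% at P3. In run 2 it was 0.0336% at E10, the library that stood apart, and otherwise between 19.7% at P3 and 51.7% at P14. The Wilson 95% intervals of the first 6 shares, from 88.0% to 92.6% for the widest, at E13, did not reach those of the other 3. The same libraries split alike over all features with at least 200 reads. Their median share in run 1 was 3.55% to 6.06% in the first 6 and 2.52% to 3.08% in the other 3, so this split is not particular to rno-miR-138. PCR copies were counted as separate reads, and these intervals and the limit for a count of 0 hold for counting error alone. For rno-miR-22 the share in run 1 lay between 38.1% at P3 and 68.7% at P14, and in run 2 between 26.9% at P3 and 48.2% at P14, apart from 0.0362% at E10.

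When the 18 nt tags were left out for every feature, a setting added after the data were seen, the slopes stayed past the threshold, at 0.58 (edgeR adjusted p = 0.00552) for rno-miR-138 and 0.38 (adjusted p = 0.0203) for rno-miR-22. The late difference was then 1.43 (edgeR adjusted p = 0.161) and 1.52 (adjusted p = 0.087), neither past it. By run, the longer tags of rno-miR-138 were at 82.7 TPM at E10, 244 TPM at P3 and 151 TPM at P28 in run 1, with 55.9 to 151 TPM in the late samples. In run 2 they were at 181 TPM at E10, 308 TPM at P3 and 726 TPM at P28, with 412 to 726 TPM in the late samples, all above the earlier ones. The late samples thus stood above all earlier ones in the longer rno-miR-138 tags of run 2 and not of run 1, where P3 was the highest sample. The longer tags of rno-miR-22 were at 154 to 263 TPM late and 18.6 to 208 TPM earlier in run 1, and at 43.5 to 183 TPM late and 11.4 to 168 TPM earlier in run 2, so the groups overlapped in both runs.

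**Figure D4:**
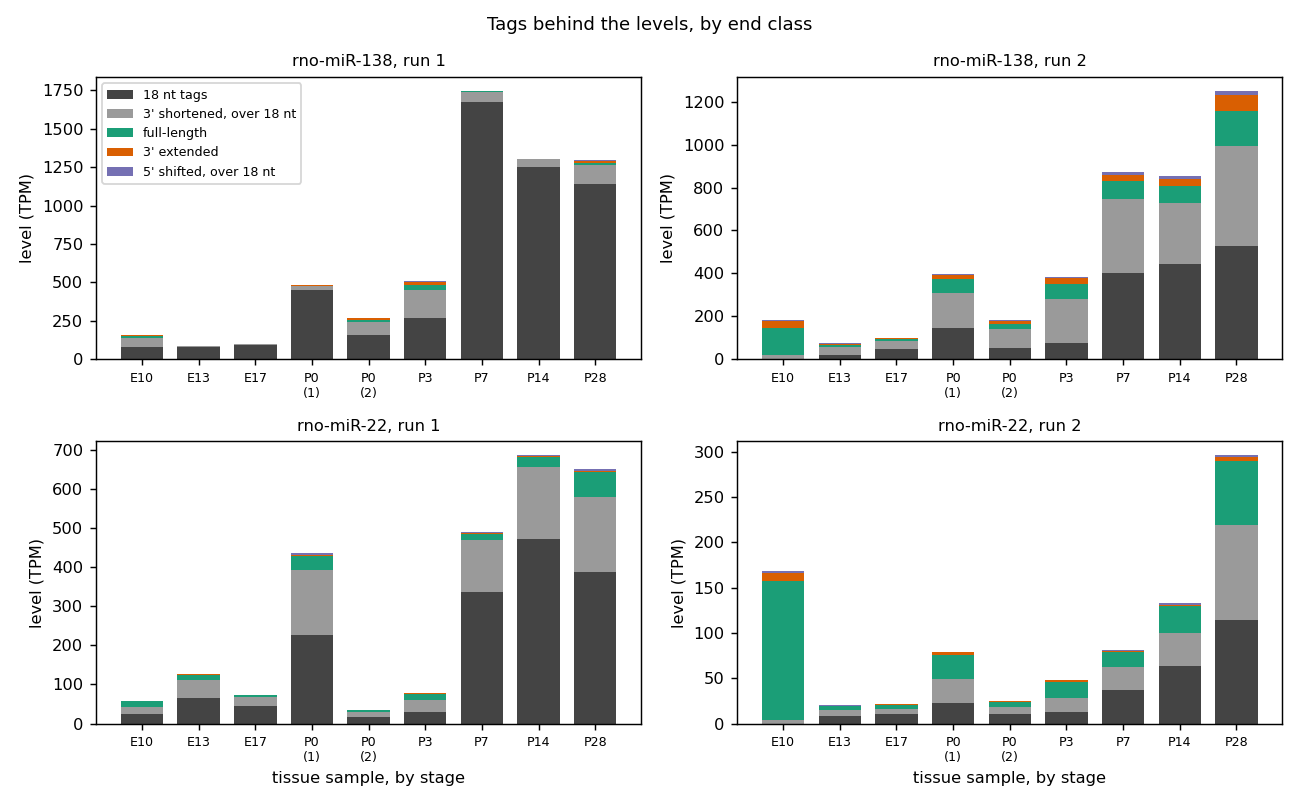
Level in TPM (y, from 0, with a scale of its own in each panel) of rno-miR-138 (top) and rno-miR-22 (bottom) in each tissue sample by stage (x) in run 1 (left) and run 2 (right), stacked by the end class of the tags. In run 1 the 18 nt tags fill most of the rno-miR-138 bars, up to 95.7% at P14, and in run 2 of E10 both members were mainly full-length, with shares of 68.1% and 91.7%.

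The 4 end classes of both members were tested for a difference between the 3 late and the 6 earlier samples, as the mean share of both runs. The full-length share of rno-miR-138 was 37.8% at E10, 7.67% at E13, 5.62% at E17, 7.99% and 9.64% in the P0 samples, 12.1% at P3, 4.88% at P7, 4.62% at P14 and 6.92% at P28. Its mean was 5.47% late and 13.5% earlier, and E17 lay within the late range. For rno-miR-22 the full-length share was 58.1% at E10, 16.7% at E13, 13.7% at E17, 21.1% and 16.0% in the P0 samples, 28.0% at P3, 12.0% at P7, 13.4% at P14 and 16.7% at P28. Its mean was 14.0% late and 25.6% earlier, and the groups overlapped. None of the 8 tests passed after Benjamini-Hochberg adjustment (exact permutation test, two-sided, n = 3 and 6): the raw p was 0.0476 for full-length and 3' shortened rno-miR-138 and for 3' extended rno-miR-22, each with an adjusted p of 0.127. The smallest raw p of this permutation test is 0.0238, so no test could pass the adjustment over 8 unless several came near it together. The design could therefore hardly show a difference in a single class. With E10 from run 1 alone the differences in full-length share went from -8.00 to -2.96 percentage points for rno-miR-138 and from -11.6 to -5.98 for rno-miR-22.

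The 5' end, which sets the seed, was nearly fixed in both members. Of the rno-miR-138 reads, 99.0% in run 1 and 98.1% in run 2 began at the mature 5' end, and of the rno-miR-22 reads 99.1% and 98.9% did. The commonest shift was a start 1 nt inside, with 0.641% and 1.35% of the rno-miR-138 reads and 0.585% and 0.768% of the rno-miR-22 reads. Such tags carry another seed, shown here in capitals within the shifted sequence.
rno-miR-138, start 1 nt inside: gCUGGUGUugugaaucaggccg
rno-miR-22, start 1 nt inside: aGCUGCCAguugaagaacugu
The share of 5' shifted tags was 1.17% to 1.36% late and 1.04% to 2.26% earlier for rno-miR-138, and 0.984% to 1.19% late and 0.881% to 1.56% earlier for rno-miR-22, so that the groups overlapped for both.

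At the 3' end, tags that ran past the mature end made up 1.05% of the rno-miR-138 reads in run 1 and 5.46% in run 2, and 0.621% and 2.51% of the rno-miR-22 reads. The hairpins of rno-miR-138 differ right after the mature end, by U24A, where the base of Mir138-1 comes first and positions are counted from base 1 of the mature sequence. The first added base, T in the reads for U, was T in 65.5% of the extended rno-miR-138 reads of run 1 and 69.2% of run 2, and A in 31.6% and 30.2%. An added A need not come from Mir138-2, since 55.3% and 47.1% of the extended rno-miR-22 reads also began with A, which is not the next base of Mir22. Whether an added T comes from Mir138-1 was not tested, and rno-miR-22 gives no check on it, since the next base of Mir22 is itself U. Of the extended rno-miR-138 reads with T or A, T made up 69.1% at E10, 71.2% at E13, 80.3% at E17, 57.7% and 69.5% in the P0 samples, 73.9% at P3, 72.8% at P7, 71.7% at P14 and 67.8% at P28, with P0 sample 1 the lowest and E17 the highest.

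The opposite arms, unlike the mature rno-miR-138, tell its hairpins apart. They are shown because their reads are assigned to 1 hairpin each.
rno-miR-138-1-3p: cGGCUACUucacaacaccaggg
rno-miR-138-2-3p: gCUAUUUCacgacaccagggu
rno-miR-22-5p: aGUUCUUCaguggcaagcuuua
The arm of Mir138-1 was at 1.22 TPM at E10, 1.42 TPM at E13, 1.13 TPM at E17, 3.68 and 2.42 TPM in the P0 samples, 6.53 TPM at P3, 8.92 TPM at P7, 6.72 TPM at P14 and 16.1 TPM at P28, as the mean of both runs. Its late levels lay just above all earlier ones, but not in run 1, where P14 with 3.06 TPM was below P0 sample 1 with 4.34 TPM and P3 with 3.08 TPM. Its slope was 0.66 (SE 0.124, edgeR adjusted p = 0.00111), and the late difference of 1.63 did not pass (adjusted p = 0.111). The arm of Mir138-2 was at 6.33 TPM at E10, 3.78 TPM at E13, 1.70 TPM at E17, 4.75 and 1.03 TPM in the P0 samples, 4.39 TPM at P3, 10.5 TPM at P7, 6.17 TPM at P14 and 7.09 TPM at P28. Here E10 lay within the late range, and the slope of 0.26 did not pass (SE 0.118, edgeR adjusted p = 0.0842).

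The balance of the arms from the hairpins of rno-miR-138 was therefore compared, with reads of both runs summed. Mir138-1 gave 39 of 244 such reads at E10 (16.0%), 28.8% at E13, 36.6% at E17, 44.4% and 70.8% in the P0 samples, 59.6% at P3, 42.8% at P7, 55.1% at P14 and 69.3% at P28. The Wilson 95% interval at E10, 11.9% to 21.1%, and that at P28, 65.6% to 72.8%, were far apart. They hold for counting error alone and not for the spread between tissue samples, which at P0 reached from 44.4% to 70.8%. Yet the log2 ratio of the arms was 0.85 higher late than earlier with an exact permutation p of 0.381 (two-sided, n = 3 and 6), since both P0 samples and P3 lay above the lowest late value, that of P7. This test was chosen after the data were seen. Without E10 and E13 the difference was 0.17. The low share at E10 rested mainly on run 2, where Mir138-2 gave 199 reads and Mir138-1 gave 37, against 6 and 2 reads in run 1. The first added base did not show it, since at E10 T made up 69.1% of the extended rno-miR-138 reads with T or A.

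rno-miR-22-5p was the most abundant opposite arm. Its level was 13.7 TPM at E10, 15.0 TPM at E13, 19.2 TPM at E17, 47.7 and 13.2 TPM in the P0 samples, 25.0 TPM at P3, 73.7 TPM at P7, 82.5 TPM at P14 and 170 TPM at P28. Its late levels lay above all earlier ones, and the slope was 0.58 (SE 0.0955, edgeR adjusted p = 0.000494), beside 0.43 for rno-miR-22 itself. It made up 12.3% to 30.3% of the reads of both arms in the earlier samples and 20.6% to 25.8% in the late ones, so the ranges overlapped. In contrast, the arm of Mir138-1 made up at most 1.82% of its reads and those of rno-miR-138 together, and that of Mir138-2 at most 4.59%, all as means of both runs. In single libraries these shares reached 3.18% and 6.71%, both in run 2 of E13.

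**Figure D5:**
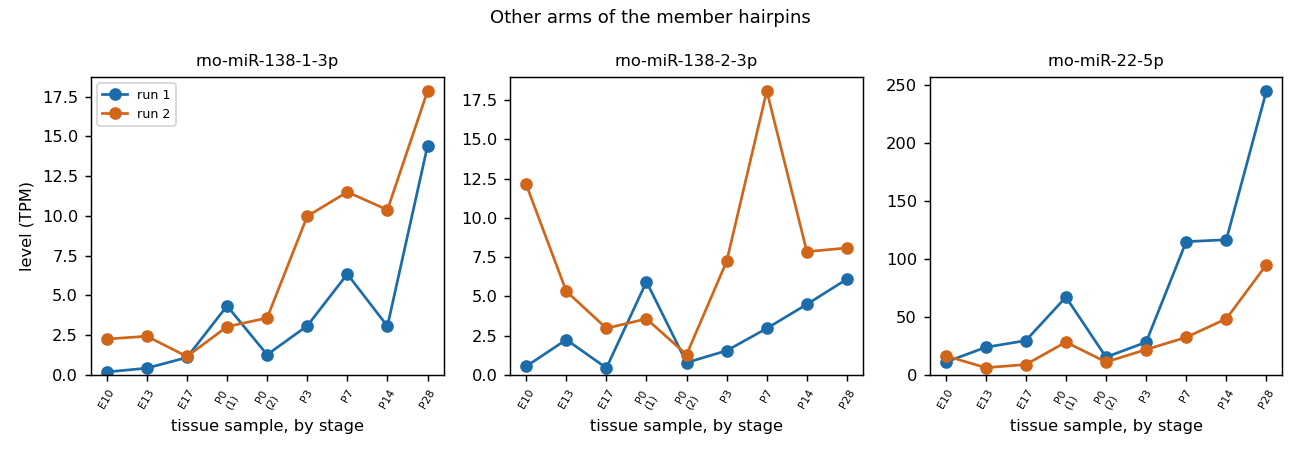
Level in TPM (y, from 0, with a scale of its own in each panel) of the opposite arms rno-miR-138-1-3p, rno-miR-138-2-3p and rno-miR-22-5p in each tissue sample by stage (x), with blue for run 1 and orange for run 2. rno-miR-138-1-3p and rno-miR-22-5p were highest at P28 in both runs, and the highest value of rno-miR-138-2-3p was 18.1 TPM, in run 2 of P7.

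Features most like each member were sought by Pearson's r of log2(TPM + 1) over the 9 tissue samples, among the 196 other features with a mean of at least 50 TPM. The values share their libraries and depth and are a description. The limit on the mean also admits features through their late levels alone, which favours features that rise. Examples in the lists are rno-miR-132-5p, with 0.297 to 19.7 TPM earlier and 34.8 to 391 TPM late, and rno-miR-29b-3p, with 5.70 to 37.4 and 110 to 1253 TPM. Most like rno-miR-138 were rno-miR-221-3p (r = 0.931), rno-miR-1224 (r = 0.931), rno-miR-222-3p (r = 0.923), rno-miR-132-5p (r = 0.92) and rno-miR-873-5p (r = 0.911). Most like rno-miR-22 were rno-miR-29a-3p (r = 0.915), rno-miR-126a-5p (r = 0.908), rno-miR-24-3p (r = 0.903), its own opposite arm rno-miR-22-5p (r = 0.899) and rno-miR-29b-3p (r = 0.887). The lists shared no feature. With r = 0.793, rno-miR-22 came at place 18 in the list of rno-miR-138, and rno-miR-138 at place 32 in that of rno-miR-22. Of the 6 other miRNAs that the study plotted as rising, all 6 rose past the threshold in the slope, beside 16.7% of all features, and 4 passed as higher late, beside 10.0%, but this list was chosen on these samples and is not independent evidence.

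Markers of cell types were read beside the members, and their part in the members' levels was not tested. Of the neuronal pair, rno-miR-128 stood at 1654 TPM in E10 and 145520 TPM in P28 (slope 0.93, edgeR adjusted p = 0.023), while rno-miR-124 was at 21662 and 25506 TPM (slope 0.03, adjusted p = 0.924) and highest in between, at 112670 TPM in P0 sample 1 against 42572 TPM in P0 sample 2. P0 sample 1 was also the P0 sample with more of both members. The 2 oligodendrocyte markers, rno-miR-219-2-3p and rno-miR-338, summed to 22.8 to 288 TPM in the earlier and 1716 to 10565 TPM in the late samples, and both rose (slopes 1.04 and 0.44). The sum was mostly rno-miR-219-2-3p, and the levels of rno-miR-338 overlapped between the groups, at 6.16 to 45.4 TPM earlier and 28.0 to 133 TPM late. Of the mesenchyme and vessel wall markers, rno-miR-199a-3p was at 29748 and 40984 TPM at E10 and E13, 348 TPM at E17, 228 and 349 TPM in the P0 samples, 1002 TPM at P3 and 2025 TPM at P7, and its slope was -0.61 (edgeR adjusted p = 0.0248). rno-miR-143 rose (slope 0.26, edgeR adjusted p = 0.045), with 169 to 1161 TPM earlier and 1079 to 2352 TPM late, rno-miR-145 did not pass, and the 3 markers summed to 531 to 41958 TPM earlier and 2830 to 4137 TPM late. The endothelial rno-miR-126 was at 17.4 to 80.1 TPM earlier and 57.8 to 70.9 TPM late. Red blood cell markers summed to 44.4 to 1142 TPM earlier, with E10 the highest, and 32.3 to 67.2 TPM late, and the 2 markers of other blood cells and microglia to 0.468 to 32.9 TPM and 1.29 to 2.40 TPM. Markers of every cell type listed were thus found in both the earlier and the late samples. With both runs averaged both members were highest in the late samples, though in run 2 rno-miR-22 was higher at E10 than at P7 and P14.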

How the data were processed

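Total RNA was extracted with TRIzol, size-fractionated and sequenced on a Genome Analyzer, which the methods of the study name as Solexa 1 G. The authors removed adaptors and low quality reads and deposited, for every library, a count per distinct tag sequence, with no normalization; mapping and annotation were not used here. The rat mature sequences of RefSeq (692), 15 further sequences from the primers and 88 candidates of the study were counted with the rule given for the members. Of 38065 matched tags, 531 fitted several features (1.99% of matched reads) and were counted for each. Reads with a mismatch were not counted: single substitutions at positions 2 to 16 came to 5.06% of the unchanged rno-miR-138 reads in run 1 and 2.06% in run 2, and to 5.44% and 3.68% for rno-miR-22.

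Counts of both runs were summed per tissue sample and fitted with edgeR 4.0.16 in R 4.3.3 (limma 3.58.1; TMM, total clean reads as library size, features with 10 or more counts in 2 or more tissue samples). Calls needed an adjusted p (Benjamini-Hochberg) under 0.05. P-values measure the spread between tissue samples, of which only P0 had 2. DESeq2 1.42.0 was an alternative model, beside other normalizations, filters, runs and left-out samples. The tags were counted in Python 3.11.15 (pandas 2.3.3, numpy 2.4.6), the permutation tests came from scipy 1.17.1 and the plots from matplotlib 3.10.9. The edgeR slope and late fits and the tag matching were tested on simulated data. The permutation test and the criterion for samples that stand apart were tested on small made-up lists, and the DESeq2 fits were not tested. Named were both members, the 5 features most like each, and lists of markers and of rising miRNAs. The members, lists and late split were chosen with earlier results of these data known.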

Additional observations from a re-analysis of the deposited data

Results flagged for a closer look

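Among the 6 tissue samples before P7, 19 values of the members and their opposite arms were searched for a sample far from the others by Dixon's criterion, which chance meets in about 1 of 20 groups, and 8 stood out. These values are not independent, since shares of one member add up and come from the same libraries.

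E10 stood apart in 6 of them. Its full-length share was 37.8% for rno-miR-138 and 58.1% for rno-miR-22, its 3' shortened share 48.9% and 37.0%, and its 3' extended share for rno-miR-138 11.0%. Its full-length level of rno-miR-22 was 84.2 TPM. All 6 rest largely on run 2 of E10, in which 18 nt tags were nearly absent, and run 1 alone was not searched. Within run 1 E10 also had the highest earlier full-length shares, 7.53% and 24.5%, with P3 next at 5.99% and 20.4%. Its full-length level of rno-miR-22 in run 1, 14.4 TPM, was below that of P0 sample 1, 36.6 TPM.

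P0 sample 1 stood apart in the other 2, with 257 TPM of rno-miR-22 and 47.7 TPM of rno-miR-22-5p, against 30.4 and 13.2 TPM in P0 sample 2. By run it held 435 and 79.2 TPM of rno-miR-22, and in run 2 E10 was higher with 168 TPM. Its rno-miR-22-5p, at 67.1 and 28.3 TPM, was the highest of the earlier samples in both runs.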

How the results depend on the processing

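The slopes kept their direction in all 23 other settings each. rno-miR-138 missed the threshold only with full-length tags (0.31), and rno-miR-22 with full-length tags (0.12), both only while run 2 of E10 was kept, and without TMM normalization (0.32). Leaving out 1 tissue sample gave slopes of 0.62 to 0.83 and 0.40 to 0.51, all past the threshold. The 259 features past it in the slope became 131 in run 1, 48 of 119 in the lists of the study and 171 without P28 (273 without P0 sample 1).

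The late comparison depended on single samples and on settings. Its 152 calls became 8 without TMM normalization, 79 in run 1, 23 in the lists of the study, and between 4 without P28 and 175 without P3 (8 without P14, 73 without P7, 92 without E17). rno-miR-138 passed the threshold with DESeq2 (2.12), in the lists of the study (2.53) and without E10 and E13 (1.54), and ranged over 1.66 to 2.28 with 1 sample left out, passing without P3. rno-miR-22 missed it without TMM normalization (1.84), in run 2 (1.70), with full-length tags (0.81, or 1.32 with E10 from run 1 alone) and with 18 nt tags left out (1.52). It ranged over 1.60 to 2.25 and also missed it without E17, P0 sample 2, P7, P14 or P28. The cause was not tested.

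The run was no biological replicate, and deviations of run 1 correlated between tissue samples by 0.093 to 0.968 over 197 features (median 0.37, with 35 of 36 pairs above 0.1), and by at least 0.281 in the 28 pairs without E10 (median 0.817). With the 18 libraries and the run as a replicate block, 349 features passed in the slope and 276 in the late comparison, and rno-miR-138 passed there (2.10). The runs of a sample are not independent, so these p-values are too small.

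The late difference in the log2 ratio of the members turned to -0.22 without E10 and E13, where 0.0571 is the smallest p possible, and to -0.037 with 18 nt tags left out, and ranged over 0.026 to 0.59 with 1 sample left out. The difference in full-length share ranged over -9.57 to -3.14 percentage points for rno-miR-138 and -13.9 to -5.08 for rno-miR-22, with the smallest size without E10. That of the hairpin arms ranged over 0.43 to 1.23. Depth limits the hairpin arms, with 71 reads of both arms at E17, and the full-length shares of rno-miR-22, with 256 reads in run 2 of E13.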
